A study of Mus musculus with 6 samples.

Results

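Clear cells of the corpus epididymis were compared with clear cells of the cauda epididymis, the middle and the last region of the mouse epididymal duct. The comparison rests on 4 of the 6 libraries sequenced, corpus 1 and 2 against cauda 1 and 2, and it was made across all genes. Caput libraries, from the first region, entered the estimate of the spread between replicates and are otherwise given only as values beside a result. Corpus and cauda cells came from the same kind of animal. These were untreated mice aged 12 weeks that carried a transgene in which the promoter of Atp6v1b1, the gene of the B1 subunit of the vacuolar proton pump (V-ATPase), drives the fluorescent protein EGFP. Cells were sorted for EGFP in 2 rounds, and every library pooled 12 epididymides. The sort therefore selects for activity of 1 promoter. The labels do not say how many mice gave the 12 epididymides or that the pools of a region came from different animals, so the tests reflect only how far these particular libraries differ, a spread that may be technical.

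The epididymis is a coiled tube in which sperm leaving the testis mature and are stored. Its epithelium holds principal cells, which secrete most of the luminal proteins, basal cells, and clear cells, which are specialised for proton secretion. Clear cells carry the V-ATPase in their apical membrane and in vesicles that recycle to it, and the acid they secrete is known to keep sperm quiescent. They are also known to take up and digest material from the lumen, and their proton secretion is known to respond to luminal bicarbonate, nucleotides and angiotensin. The corpus is a transit segment, whereas the cauda is the store for mature sperm. The data address how the transcripts of clear cells differ between these distal segments.

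Each library gave between 18887128 and 23532405 reads in genes. Levels are given in CPM, counts per 1000000 reads of the library size after scaling with TMM, a method that sets the bulk of the genes equal between libraries. They are listed in the order library 1, library 2 of a region. Fold changes are log2 values of corpus over cauda, positive where corpus was higher, with an approximate standard error (SE). A gene was called when its adjusted p in edgeR's quasi-likelihood test was under 0.05. The 10 genes with most reads took 18.93% and 19.86% of the reads of the corpus libraries and 26.91% and 26.25% of the cauda libraries. On the second principal component of log2 CPM, with 26.1% of the variance, the corpus libraries lay at 79.1 and 77.5 and the cauda libraries at -60.5 and -61.4, while the first component, with 65.1%, separated both regions from caput.

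Corpus and cauda clear cells differed in 5592 of 15816 tested genes, 35.4% of the total. Of these, 2742 were higher in corpus (17.3% of those tested) and 2850 were lower (18.0%), and the median log2 fold change of all tested genes was 0.0. Scaling by library totals, without TMM, shifted that median by 0.27 towards corpus and gave 5154 higher and 1736 lower; the changes below are those relative to the typical gene. The typical called difference was moderate, with a median absolute log2 fold change of 0.93. Changes of at least 3 on the log2 scale were found for 293 genes higher in corpus and 355 lower, and changes of at least 5 for 54 and 156. Among the 133 genes that reached 1000 CPM in a region, 80.5% were called, 33 higher in corpus and 74 lower. The 2 libraries of corpus did not overlap with the 2 of cauda in 10995 genes (69.5% of those tested), and a lack of overlap is to be read against that share.

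**Figure D1:**
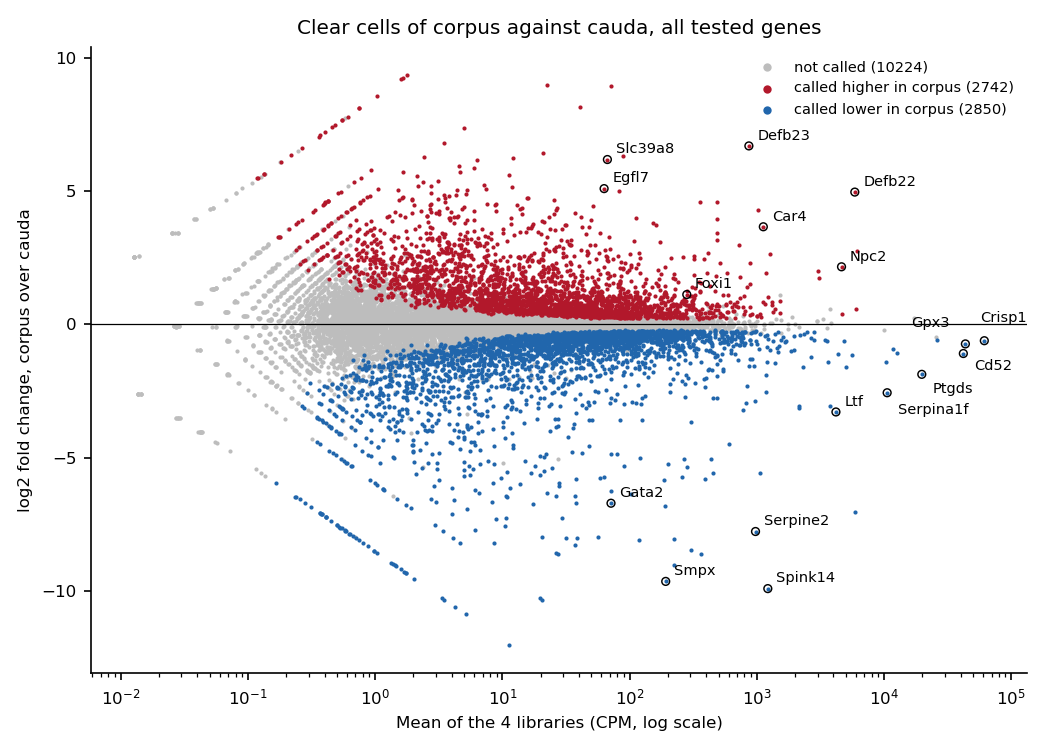
Each point is a tested gene, with its mean over the 4 libraries (CPM, log scale) on the horizontal axis and its log2 fold change of corpus over cauda on the vertical axis. Red points are the 2742 genes called higher in corpus, blue points the 2850 called lower and grey points the rest; circles mark named genes. The most abundant genes sit to the right and mostly below 0, and the points fan out to both sides at middle levels.

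Clear cell genes were detected in every library and were higher in corpus. Of 16 tested clear cell markers, 13 were called higher in corpus and 0 lower, with a median log2 fold change of 1.02, against 17.3% of all genes and a median of 0.0. Foxi1, the transcription factor that specifies proton-secreting cells, stood at 384 and 388 CPM in corpus and 151 and 203 CPM in cauda. All corpus values were above all cauda values, and the difference was 1.12 ± 0.13 (edgeR adjusted p = 0.000268). Atp6v1b1, whose promoter drove the reporter, stood at 53.2 and 65.4 CPM in corpus and 16.6 and 24.2 CPM in cauda (1.54 ± 0.18, adjusted p = 0.000599). Hepacam2, a cell adhesion molecule found on proton-secreting cells, measured 82.8 and 88.6 CPM in corpus and 22 and 30.5 CPM in cauda (1.71 ± 0.13, adjusted p = 2.74e-05). The cytosolic carbonic anhydrase Car2, which supplies protons and bicarbonate, was at 791 and 902 CPM in corpus and 154 and 192 CPM in cauda (2.29 ± 0.12, adjusted p = 2.26e-06). The insulin-receptor-related kinase Insrr (2.52) and the endosomal chloride transporter Clcn5 (1.15) were also called, as was the transcription factor Tfcp2l1 (0.86). Kit, the nucleotide-sugar receptor P2ry14 and the bicarbonate exchanger Slc4a9 were not called, at 0.24, 0.04 and 0.25. Taken as a sum, the markers held 0.254% and 0.281% of the reads in corpus and 0.0778% and 0.101% in cauda, with 1.46% and 1.42% in caput. In sorted bulk samples, fewer cells of a type and less RNA per cell cannot be told apart.

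Within the proton pump, the largest differences were in subunits typical of proton-secreting cells, though not in all of them. Of 26 V-ATPase subunits and accessory genes, 13 were called higher in corpus and 2 lower, with a median of 0.31, and 8 were called higher without cauda 1. The specialised subunits Atp6v0a4 (11.8 and 16.2 CPM in corpus and 4.42 and 3.81 CPM in cauda), Atp6v1b1, Atp6v1g3 (1.27) and Atp6v0d2 (0.91) rose most. Atp6v0a4 changed by 1.77 ± 0.2 (adjusted p = 0.000173). Atp6v1c2, also among the clear cell markers, rose by only 0.3 (0.24 without cauda 1 and 0.2 without corpus 2). That is less than the widely expressed Atp6v1h, Atp6v1a and Atp6v0b. The widely expressed subunits Atp6v1h (0.4) and Atp6v0e (0.37) were called with small differences, as was Atp6v1a (0.42; 0.32 and not called without cauda 1), and Atp6v0b was at 387 and 414 CPM in corpus and 222 and 244 CPM in cauda (0.78 ± 0.08, adjusted p = 8.91e-05). Atp6v1b2, Atp6v1c1, Atp6v1d, Atp6v1f, Atp6v0c and Atp6v0d1 were not called and lay between -0.08 and 0.23. Per length of transcript, the kidney-type Atp6v1b1 stood at 30.6 ± 4.37 RPKM in corpus and 10.5 ± 2.76 in cauda (mean ± SD of 2 libraries), below its ubiquitous relative Atp6v1b2 in cauda, at 28.2 ± 2.15 and 23.9 ± 1.87 RPKM. The subunit Atp6v0e2 was lower in corpus (-0.64 ± 0.09, adjusted p = 0.000532). The prorenin receptor Atp6ap2 was called lower at -0.47 ± 0.08, a call that was lost under library totals.

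Markers of other cell types were present as well. Of 24 principal cell markers, 6 were called higher and 7 lower in corpus, with a median of -0.11 that became 0.15 under library totals with 6 in each direction. They held 5.32% and 6.23% of the reads in corpus and 7.32% and 7.26% in cauda, far above the clear cell markers, with 1.3% and 1.61% in caput. Crisp1, a principal cell secretory protein that coats sperm and takes more reads than any other gene, stood at 43137 and 53977 CPM in corpus and 76109 and 72357 CPM in cauda. Aqp9, a water and solute channel of principal cells, was at 241 and 247 CPM in corpus and 306 and 298 CPM in cauda and did not differ detectably (-0.31 ± 0.23, adjusted p = 0.365). Krt5, the basal cell keratin, was at 11.2 and 5.87 CPM in corpus and 12.3 and 6.65 CPM in cauda (-0.15 ± 0.46, adjusted p = 0.84). Of 17 basal cell markers, 6 were called higher and 2 lower, with a median of 0.2, among them the integrin subunit Itga6 (2.06 ± 0.16), the laminin chain Lama3 (1.7 ± 0.2) and the basement membrane linker Dst (1.15 ± 0.11), and without corpus 1, 3 were called higher, and without caput 1 or cauda 1, 1 was called lower. Itga3, also an integrin subunit, was among the members called lower (-0.35). That call was lost under library totals (-0.08), by DESeq2 and with only the 4 corpus and cauda libraries. Summed over the list, basal cell markers came to 324 and 288 CPM in corpus and 293 and 241 in cauda.

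In each marker list of leukocytes, stroma and sperm, at most 4 members were called in a direction with all libraries in the fit. Ptprc, the pan-leukocyte gene, measured 1.79 and 3.09 CPM in corpus and 0.64 and 1.85 CPM in cauda (0.96 ± 0.56, adjusted p = 0.224). Of 15 mononuclear phagocyte markers, 0 were called higher and 2 lower in corpus, with a median of -0.4; 1 was called lower without any 1 of the 4 libraries, and 1 was called higher without corpus 2. Called higher were 2 with a replicate block, 2 under library totals and 1 by DESeq2, where 2, 1 and 1 were called lower. Summed, they came to 101 and 145 CPM in corpus and 85.1 and 140 in cauda, with library 2 the higher in both regions, and Cd163, Itgax and Lyz1 had 5 or fewer reads in each region. Itgam, an integrin of myeloid cells, was at 1.29 and 1.16 CPM in corpus and 13.4 and 11.8 CPM in cauda (-3.35 ± 0.27, adjusted p = 1.74e-05). Of 5 tested lymphocyte markers 0 were called; the B cell genes Cd79a (10.2 and 14.6 CPM in corpus and 1.74 and 8.99 CPM in cauda) and Cd79b varied between replicates. Stromal, muscle and endothelial markers had 1 of 17 called higher and 4 lower, with a median of -1.31, and summed to 187 and 174 CPM in corpus and 455 and 550 in cauda; without corpus 1, 1 member was called lower, without corpus 2 or cauda 2, 2 were, and without caput 1 or caput 2, 7 were. Vwf, a clotting factor of endothelium, was the member called higher (1.62 ± 0.23). The share of this list called, 29.4%, was below the 35.4% of all genes. The matrix proteoglycan Dcn had the highest level of the list, at 83.9 and 88.1 CPM in corpus and 329 and 376 CPM in cauda (-2.04 ± 0.09, adjusted p = 4.35e-07). Of 15 sperm transcripts 0 were called (2 lower without caput 1 or caput 2, 1 without corpus 2), at sums of 13.6 and 83 CPM in corpus and 89.7 and 130 in cauda. The protamine Prm1 measured at most 0.152 CPM in these libraries. The part of principal, basal, stromal or blood cell RNA in the differences described below was not tested.

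The transcripts that took most reads were secretory ones. In corpus the 10 genes with most reads were Crisp1, Gpx3, Cd52, Spink8, Itm2b, Cuzd1, Defb22, Wfdc13, Defb28 and Ptgds, and in cauda Serpina1f, B2m and Wfdc10 stood in place of Defb22, Wfdc13 and Defb28. Most of them were lower in corpus. Gpx3, the plasma glutathione peroxidase, was at 31716 and 33993 CPM in corpus and 51141 and 57526 CPM in cauda (-0.73 ± 0.1, adjusted p = 0.000336). Cd52, a glycosyl-anchored peptide passed to the sperm surface, was at 26597 and 27068 CPM in corpus and 60989 and 53352 CPM in cauda (-1.09 ± 0.11, adjusted p = 6.46e-05). Crisp1 was called lower in corpus at -0.61 ± 0.15, but the call was lost under library totals, with no filter on low counts, and without corpus 1, cauda 1 or cauda 2. Itm2b, a membrane protein that inhibits amyloid deposition, was lower at -0.6 ± 0.09 (adjusted p = 0.000732). The Kazal inhibitor Spink8, the zona-pellucida-domain protein Cuzd1 and the defensin Defb28 were not called, at -0.48 ± 0.16, 0.23 ± 0.2 and -0.21 ± 0.11. Ptgds, the lipocalin-type prostaglandin D synthase, stood at 9055 and 7938 CPM in corpus and 32594 and 29620 CPM in cauda, a log2 fold change of -1.87 ± 0.11 (adjusted p = 2.46e-06). Serpina1f, an epididymal serpin, had the largest fall of these genes, from 18653 and 17545 CPM in cauda to 2970 and 3150 in corpus (-2.56 ± 0.09, adjusted p = 1.14e-07). Wfdc13, a small WAP-domain inhibitor, ran the other way at 10195 and 11054 CPM in corpus and 1614 and 1535 CPM in cauda (2.75 ± 0.09, adjusted p = 9.7e-08). All 13 genes were lower in caput than in corpus, for example Crisp1 at 4373 and 3286 CPM and Cd52 at 1718 and 1464.

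The largest rises in corpus covered secreted proteins, transporters and enzymes. Defb23, a beta-defensin, stood at 1529 and 1902 CPM in corpus and 18.6 and 14.7 CPM in cauda (6.69 ± 0.32, adjusted p = 7.58e-05). Slc39a8, which imports zinc and manganese, was at 124 and 140 CPM in corpus and 1.34 and 2.29 CPM in cauda (6.18 ± 0.18, adjusted p = 7.92e-08). Egfl7, a secreted factor known from endothelium, was at 114 and 131 CPM in corpus and 2.91 and 4.25 CPM in cauda (5.09 ± 0.2, adjusted p = 4.69e-07). In each of these genes both corpus libraries lay far above both cauda libraries, and only genes without overlap between regions could enter this set. Angpt2, a ligand of the Tie2 receptor (5.6 ± 0.33), and Slc28a2, a sodium-coupled nucleoside transporter (5.23 ± 0.34), were close to the detection limit in cauda, as was the corticotropin-releasing-hormone binding protein Crhbp (5.87 ± 0.52). The potassium channel Kcnj16 rose by 5.03 ± 0.41, and the diacylglycerol kinase Dgkk by 6.15 ± 0.39. The odorant receptor gene Olfr56 had 2 reads over the cauda libraries and 378 over those of corpus, a ratio of 179 with a 95% counting interval of 49.1 to 1480. Lcn5, a retinoid-binding epididymal lipocalin, was at 50.2 and 112 CPM in corpus and 0.581 and 0 CPM in cauda, and its fitted value of 8.14 ± 0.95 rests on few cauda reads. The sulfotransferase Sult1d1 (6.25 ± 0.43) completed this set with Ush1c and Defb29, described below, and with the Kunitz inhibitor Spint4 (6.33 ± 1.01) and the histidine ammonia-lyase Hal (5.14 ± 1.14).

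The largest falls were genes nearly silent in corpus. Smpx, a small protein known from striated muscle, was at 0.392 and 0.557 CPM in corpus and 377 and 391 CPM in cauda (-9.63 ± 0.15, adjusted p = 2.62e-09). Krt32, a hair keratin, was at 0.112 and 0.152 CPM in corpus and 63.4 and 45.2 CPM in cauda (-8.62 ± 0.31, adjusted p = 1.73e-07). Spink14, a Kazal-type protease inhibitor, was at 0.448 and 4.51 CPM in corpus and 2475 and 2400 CPM in cauda (-9.9 ± 0.78, adjusted p = 0.00192). In each, the corpus libraries stayed under 5 CPM. Gpx5, the secreted epididymal glutathione peroxidase, was at 1.12 and 2.28 CPM in corpus and 607 and 603 CPM in cauda, with 1367 and 2308 CPM in caput, so that its low point was the corpus (-8.45 ± 0.46, adjusted p = 0.000229). Slc7a15, of the family of cationic amino acid transporters, was at 1.18 and 2.18 CPM in corpus and 456 and 431 CPM in cauda (-8.03 ± 0.39, adjusted p = 9.84e-05). Treh, which cleaves trehalose (-8.58 ± 0.78), the adhesion molecule Igsf11, the seminal vesicle secretory gene Svs1 (-8.07 ± 0.77), the zinc-binding glycoprotein Azgp1 (-8.01 ± 0.87) and the cornified envelope gene Lce6a (-7.95 ± 0.51) belonged to the same set. Igsf11 had 2 reads over the corpus libraries and 602 over those of cauda, a ratio of 318 (95% counting interval 87.8 to 2636). Crygc, a lens gamma-crystallin, and Muc3, a membrane mucin, had 0 reads in corpus, and were at least 283-fold and 130-fold lower there, taking 3 reads over the region as the limit that a count of 0 allows. S100a8, a calcium-binding antimicrobial protein, had 1 read in corpus and 1435 in cauda.

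Several of these extreme values depended on 1 library. Without cauda 1, the log2 fold changes of Lcn5, Olfr56, Sult1d1, Dgkk, Ush1c and Hal became 13.92, 6.45, 7.15, 6.76, 6.02 and 5.89. Without cauda 2, those of Lcn5, Olfr56, Ush1c and Azgp1 became 7.11, 10.89, 4.49 and -7.13. Without corpus 1, values of -7.73 for Cryba4, -7.37 for Crybb1, -7.03 for Lce6a, -12.91 for S100a8, -9.06 for Spink14, -7.48 for Svs1 and -7.67 for Treh were obtained. Without corpus 2 they were -11.63, -9.36, -12.9, -9.37, -12.39, -9.22 and -13.27, with -9.07 for Gpx5 and 7.45 for Lcn5. Spint4 lost its call without cauda 1, cauda 2 or corpus 1, and Hal lost it without any 1 of the 4 libraries. No gene of this set changed direction.

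**Figure D2:**
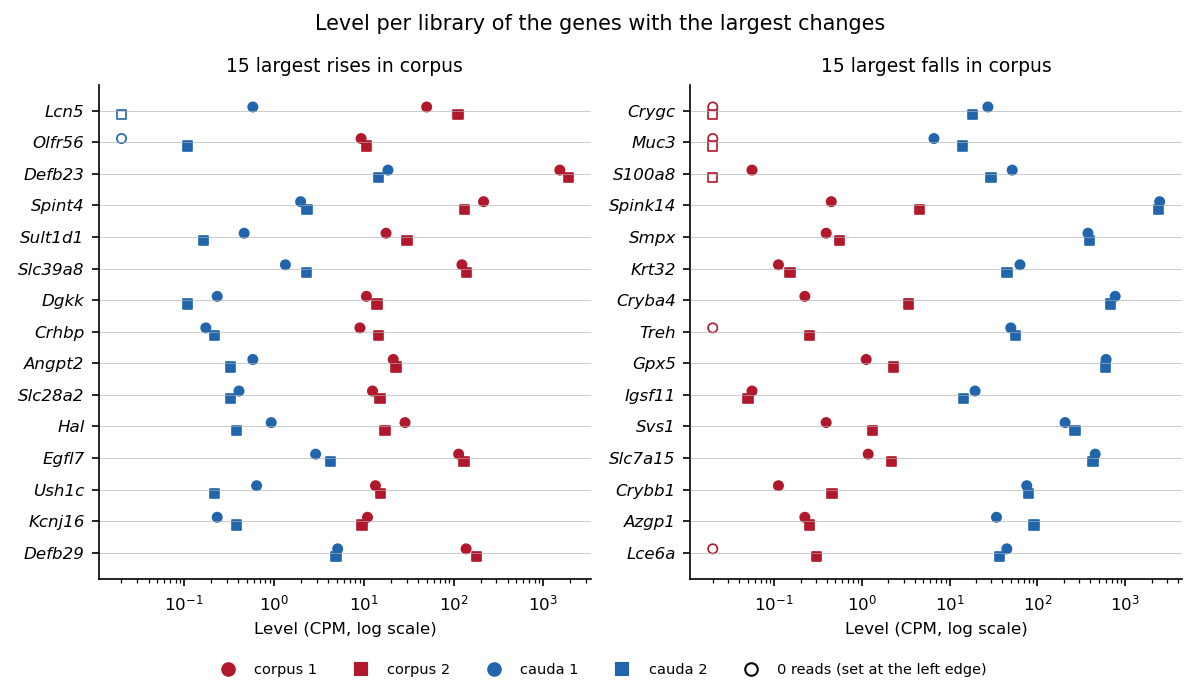
Level per library (CPM, log scale) of the 15 genes with the largest rises in corpus, left, and the 15 with the largest falls, right. Circles are library 1 and squares library 2 of a region, red for corpus and blue for cauda. Open symbols at the left edge stand for 0 reads. The genes were chosen among those whose corpus and cauda libraries do not overlap, so the gap between regions follows from the choice. Replicate gaps are visible for Lcn5, Spink14 and Cryba4.

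The promoters of the genes at these extremes were set side by side, because Gata2 was among the regulators with the largest difference (given with the transcription factors below). The motif GATAA, searched on both strands in the 250 bases before the start of each gene in RefSeq (GRCm38.p6), was chosen after the difference of Gata2 was seen. It occurred in 9 of 14 matched promoters of the largest falls (64.3%), in 3 of 14 of the largest rises (21.4%), and in 6221 of 27025 promoters of all genes (23%). For a gene with several listed starts, only the first was searched. GATAA and the genes were both picked from this comparison, so the shares are descriptions only. A match is a description of letters in this window. Base composition was not allowed for, and a link of these promoters to Gata2 was not tested. The nuclear receptor hexamer AGGTCA was found in 5 of 14 (35.7%), 3 of 14 (21.4%) and 13.8%. These motifs do not contain each other. The windows shown all hold GATAA, whereas other promoters of both sets have no match. By level, Gpx5 was highest and Gata2 lowest in caput, but no comparison with caput was tested. The windows of 3 cauda-high genes (Smpx at chrX:157698723-157698972, plus strand; Gpx5 at chr13:21292687-21292936, minus strand; Krt32 at chr11:100088270-100088519, minus strand) and of 1 corpus-high gene (Defb23 at chr2:152464621-152464870, minus strand) are shown 5′ to 3′ with GATAA, or its reverse complement, in capitals.
Smpx: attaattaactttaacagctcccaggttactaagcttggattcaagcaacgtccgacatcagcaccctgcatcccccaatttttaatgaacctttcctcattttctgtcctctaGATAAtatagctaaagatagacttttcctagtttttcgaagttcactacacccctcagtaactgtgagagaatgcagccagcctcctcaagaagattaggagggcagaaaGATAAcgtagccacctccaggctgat
Gpx5: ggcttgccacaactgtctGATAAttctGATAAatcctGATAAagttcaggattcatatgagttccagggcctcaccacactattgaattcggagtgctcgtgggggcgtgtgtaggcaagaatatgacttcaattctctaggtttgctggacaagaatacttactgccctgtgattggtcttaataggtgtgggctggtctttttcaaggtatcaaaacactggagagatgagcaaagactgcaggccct
Krt32: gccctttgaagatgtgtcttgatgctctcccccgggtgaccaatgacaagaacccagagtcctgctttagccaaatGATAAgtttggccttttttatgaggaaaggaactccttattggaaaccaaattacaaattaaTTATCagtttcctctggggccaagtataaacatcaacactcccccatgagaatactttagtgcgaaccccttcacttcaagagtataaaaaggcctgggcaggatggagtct
Defb23: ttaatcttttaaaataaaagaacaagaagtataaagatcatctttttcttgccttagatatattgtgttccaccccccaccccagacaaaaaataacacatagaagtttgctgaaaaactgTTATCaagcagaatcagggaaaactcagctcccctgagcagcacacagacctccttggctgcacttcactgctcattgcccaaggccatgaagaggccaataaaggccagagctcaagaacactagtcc

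Beta-defensins, small cationic peptides that kill microbes and in the epididymis also coat sperm, were divided between the regions. Of 36 tested, 11 were called higher in corpus and 10 lower, with a median of 0.1. Defb22, a major glycoprotein of the sperm surface, stood at 10699 and 12131 CPM in corpus and 416 and 316 CPM in cauda (4.96 ± 0.2, adjusted p = 2.78e-06). Defb2 ran the other way, at 794 and 839 CPM in corpus and 6607 and 6919 CPM in cauda (-3.05 ± 0.09, adjusted p = 7.37e-08), and so did Defb9, at 152 and 151 CPM in corpus and 1352 and 1452 CPM in cauda (-3.21 ± 0.09, adjusted p = 7.18e-08). The direction of change differed between genomic runs of the family, taken as genes with gaps under 1000000 bases in RefSeq order. In the run on chromosome 2, Defb23, Defb20, Defb22, Defb26, Defb29 and Defb36 were called higher in corpus, 6 of 11 tested, and 0 were called lower, with a median of 2.66; Defb36 lost its call without cauda 2 or corpus 1, and its value was 7.18 without cauda 1. Defb29 was at 138 and 181 CPM in corpus and 5.12 and 4.9 CPM in cauda (4.99 ± 0.19), Defb26 at 611 and 765 CPM in corpus and 30.1 and 28.1 CPM in cauda (4.57 ± 0.25) and Defb20 at 197 and 209 CPM in corpus and 33.2 and 31.2 CPM in cauda (2.66 ± 0.13). Of the 2 runs on chromosome 8, that of Defb1, Defb2, Defb9, Defb10 and Defb11 had 1 of 9 called higher and 4 lower, with a median of -1.04; the higher one, Defb1, lost its call without cauda 1. The other had 3 called higher (Defb37, Defb38 and Defb39) and 4 lower of 9, and the neighbours Defb6, Defb8 and Defb7 were nearly absent from corpus, at means of 0.132, 0.0253 and 0.028 CPM against 21.1, 6.83 and 5.88 in cauda. Defb39 lost its call without corpus 2, caput 1 or caput 2, with no filter, and with only the 4 distal libraries. Without corpus 1, Defb8 and Defb7 stood at -6.92 and -10.12, and without corpus 2 at -10.32 and -6.58. Defb30 on chromosome 14 was higher in corpus at 4.38 ± 0.22, and Defb18 on chromosome 1 lower at -5.98 ± 0.52. Reads that map to several near-identical genes were not counted, so values in this family carry that uncertainty.

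**Figure D3:**
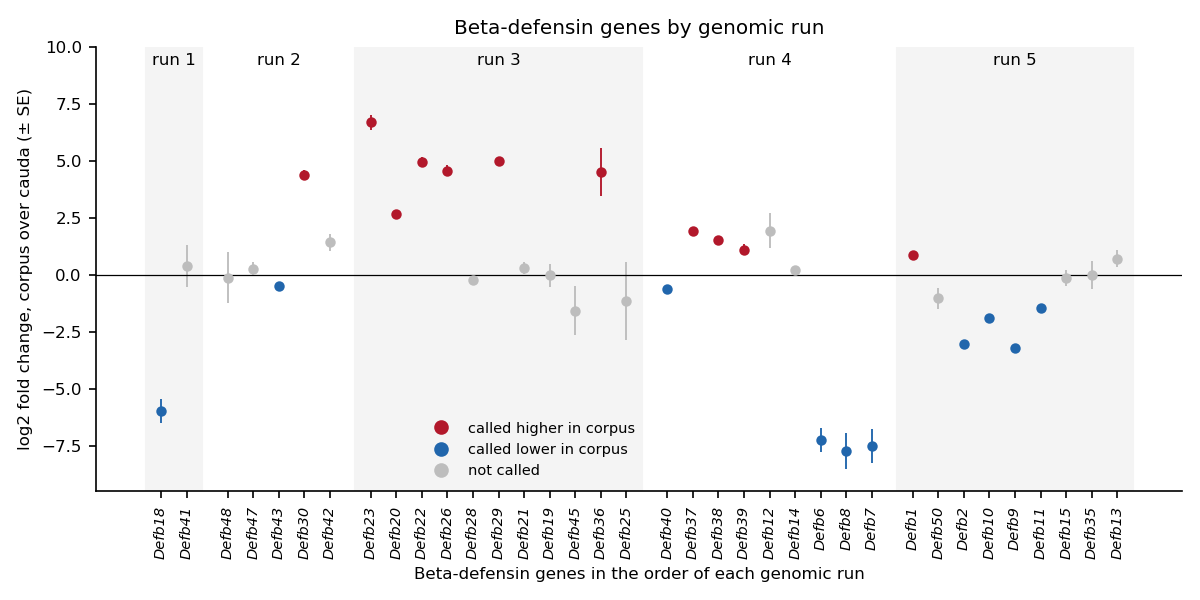
Log2 fold change of corpus over cauda (± SE) for the 36 tested beta-defensin genes, in RefSeq order within 5 genomic runs marked by shading. Red and blue points were called higher and lower in corpus; 6 of 11 genes of run 3 lie high above 0, whereas the lowest values are those of Defb6, Defb8 and Defb7 in run 4.

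Serine proteases and WAP, Kazal and Kunitz inhibitors had more members called lower in corpus than higher, and serpins more called higher. Of 30 WAP, Kazal and Kunitz inhibitors, 7 were called higher in corpus and 14 lower, with a median of -0.54. Spink5, the multidomain Kazal inhibitor of skin, was at 43.8 and 44.4 CPM in corpus and 2317 and 1848 CPM in cauda (-5.56 ± 0.19, adjusted p = 1.17e-06). Wfdc6b (-2.52 ± 0.08) and Wfdc9 (-1.9 ± 0.09) were also lower, and Wfdc10 stood at 7824 and 8275 CPM in corpus and 15655 and 14923 CPM in cauda (-0.93 ± 0.08, adjusted p = 3.17e-05). Besides Wfdc13, the members called higher included Wfdc2 (42 and 38.7 CPM in corpus and 10 and 7.08 CPM in cauda) and Wfdc6a, at 2.24 ± 0.16 and 0.77 ± 0.1. Serpins, which trap serine proteases, had 7 of 23 called higher and 2 lower; without cauda 1, corpus 1 or corpus 2, 4 were called higher, and without caput 1 or caput 2, 4 were called lower. Serpine2, protease nexin-1, fell from 1936 and 1952 CPM in cauda to 5.48 and 12.3 in corpus (-7.76 ± 0.66, adjusted p = 0.00243; -8.47 without corpus 2). The intracellular granzyme inhibitor Serpinb9 rose by 0.85 ± 0.11 and Serpinb6b by 1.08 ± 0.14. The share of serpins called, 39.1%, was near the 35.4% of all genes. With only the 4 corpus and cauda libraries, 6 serpins were called higher and 4 lower. Of 28 kallikreins and other serine proteases, 2 were called higher in corpus and 11 lower, with a median of -0.68. The glandular kallikrein Klk1b26 was at 0.783 and 0.912 CPM in corpus and 77.8 and 68.9 CPM in cauda (-6.42 ± 0.18, adjusted p = 6.66e-08), and the membrane protease Prss27 at 0.336 and 0.203 CPM in corpus and 21.2 and 12.2 CPM in cauda (-5.94 ± 0.44). Tmprss7, a transmembrane serine protease, was at -5.53 ± 0.38, or -6.66 without corpus 1 and -4.85 without corpus 2. Prss23, a secreted serine protease, was higher, at 30.7 and 33.8 CPM in corpus and 5.87 and 6.43 CPM in cauda (2.39 ± 0.11, adjusted p = 6.88e-07).

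Genes of sperm-coating and maturation proteins split evenly. Of 31 tested, 10 were called higher in corpus and 11 lower, with a median of -0.4. Npc2, a cholesterol-binding secreted protein, was at 7157 and 7990 CPM in corpus and 1731 and 1650 CPM in cauda (2.16 ± 0.1, adjusted p = 7.36e-07). Rnase9, an epididymal ribonuclease-like protein, was at 4459 and 5247 CPM in corpus and 1230 and 1180 CPM in cauda (2.01 ± 0.1, adjusted p = 7.68e-07), and Crisp4 rose by 2.54 ± 0.25 and Pate4, a sperm-binding Ly6-type protein, by 2.13 ± 0.17. The xylulose reductase Dcxr, a sperm surface protein, was higher at 1.31 ± 0.08. Clu, the chaperone clusterin, was lower at 512 and 423 CPM in corpus and 4838 and 2867 CPM in cauda (-3.04 ± 0.29, adjusted p = 0.00111), and so were the gamma-glutamyl transferase Ggt1 (-3.55 ± 0.18), the phosphatidylethanolamine-binding protein Pebp1 (-1.39 ± 0.07) and the tetraspanin Cd9 (-1.43 ± 0.1). Of 11 lipocalins, 1 was called higher (Lcn5) and 2 lower (Lcn12 and Ptgds), 27.3% in all, below the 35.4% of all genes. Without caput 1 or caput 2, 2 lipocalins were called higher and 4 lower. Lcn12, a retinoid-binding lipocalin, was at 289 and 281 CPM in corpus and 1407 and 1394 CPM in cauda (-2.3 ± 0.07, adjusted p = 9.31e-08). Among 11 cystatins and genes whose symbols share their stem, 1 was called higher and 4 lower, with 3 and 2 under library totals. The gene called higher, Cstf2 (0.55), and Cstf1 (-0.45) encode polyadenylation factors, not cystatins, and Cstad (-1.76) is not a cystatin either. The protease inhibitor cystatin C, Cst3, was at 808 and 919 CPM in corpus and 1552 and 1509 CPM in cauda (-0.83 ± 0.11, adjusted p = 0.000446). Cystatin B, Cstb, was called lower at -0.27, a call lost under library totals (0.0) and with a gene length trend removed (-0.12). The calls higher were 0 without cauda 1 or corpus 1 and 2 without caput 1 or caput 2, and the lower calls were 2 without cauda 1 or corpus 1.

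Epidermal and lens genes were more often lower in corpus than higher. Of 18 keratins, 4 were called higher in corpus and 6 lower, with a median of -0.35; with the stricter filter, which tests fewer genes, 4 were higher and 2 lower, with a median of 0.05. The simple-epithelium keratins Krt7, at 256 and 301 CPM in corpus and 67 and 81.8 CPM in cauda (1.9 ± 0.12, adjusted p = 3.46e-06), and Krt18 (0.83 ± 0.09) were higher in corpus. Krt19 was lower, at 11 and 16.1 CPM in corpus and 682 and 422 CPM in cauda (-5.35 ± 0.36, adjusted p = 0.000555), and the hair keratins Krt32, Krt35 (-5.6; -4.7 without corpus 1 and -9.59 without corpus 2) and Krt36, which had 0 reads in corpus and was at least 25.7-fold lower, were nearly absent from corpus. Of 21 cornified envelope and Ly6-family genes, 3 were called higher in corpus and 10 lower, with a median of -1.07. Psca, a glycosyl-anchored Ly6-family protein, was at 0.336 and 0.405 CPM in corpus and 62.8 and 53.5 CPM in cauda (-7.27 ± 0.36, adjusted p = 2.65e-06), and Ly6c1 at 2.91 and 2.84 CPM in corpus and 89.2 and 74.1 CPM in cauda (-4.83 ± 0.2). Lens crystallins had 4 of 10 called lower and 0 higher. Their share called, 40%, was near the 35.4% of all genes, of which 18.0% were called lower. Cryba4 was at 0.224 and 3.39 CPM in corpus and 771 and 687 CPM in cauda (-8.6 ± 0.97, adjusted p = 0.00544), Crybb1 at 0.112 and 0.456 CPM in corpus and 75.7 and 78.7 CPM in cauda, and Cryab, a small heat shock protein, at 14.2 and 12.9 CPM in corpus and 34.1 and 38.1 CPM in cauda (-1.42 ± 0.15); the values of Cryba4 and Crybb1 without single libraries stand above. Of 13 S100 calcium-binding proteins, 3 were called higher and 7 lower, with a median of -1.13. S100a14 was at 5.09 and 5.47 CPM in corpus and 171 and 138 CPM in cauda (-4.87 ± 0.24, adjusted p = 9.21e-06), S100a16 was lower at -1.13 ± 0.08 and S100a6 at -1.63 ± 0.11, and S100g, calbindin-D9k, was higher at 14.6 and 15.2 CPM in corpus and 3.37 and 5.5 CPM in cauda (1.74 ± 0.19, adjusted p = 0.000161).

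Retinoid genes had the largest median difference among the lists of 10 or more tested genes. Of 18 genes for synthesis, transport and reception of retinoic acid, 10 were called lower in corpus and 0 higher, with a median of -2.09 that ranged from -2.15 to -1.75 when libraries were left out in turn; without caput 1 or caput 2, 1 was called higher. Crabp2, which carries retinoic acid to its nuclear receptors, was at 66.4 and 77.1 CPM in corpus and 339 and 344 CPM in cauda (-2.25 ± 0.09, adjusted p = 3.1e-07). The receptors Rarg (1.12 and 0.76 CPM in corpus and 12.7 and 11.2 CPM in cauda) and Rara (2.69 and 3.04 CPM in corpus and 20.2 and 20.7 CPM in cauda) were lower at -3.67 ± 0.28 and -2.83 ± 0.16, and Rxra at -1.31 ± 0.17. Dhrs3, which reduces retinaldehyde, was at 11.1 and 9.47 CPM in corpus and 48 and 51.7 CPM in cauda (-2.28 ± 0.12), and the retinoid-responsive gene Rarres1 at 6.21 and 8.51 CPM in corpus and 92.3 and 86.4 CPM in cauda (-3.6 ± 0.16, adjusted p = 5.85e-07). Lrat, which esterifies retinol, and Rdh10, which oxidises it, were lower at -2.97 and -1.94. The synthesising enzyme Aldh1a1 took the most reads of the list, at 1217 and 1533 CPM in corpus and 1532 and 1878 CPM in cauda, and was not called (-0.31 ± 0.13). Aldh1a2, Rarb and Rxrb were not called either, at 0.23, 0.42 and -0.09.

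Steroid-related genes differed gene by gene. Of 25 genes of androgen, estrogen and corticosteroid action, 5 were called higher in corpus and 10 lower, with a median of -0.07 (under library totals 0.2, and 9 higher against 7 lower). Srd5a1, a steroid 5-alpha-reductase that makes dihydrotestosterone, was at 110 and 117 CPM in corpus and 20.2 and 19.7 CPM in cauda (2.51 ± 0.1, adjusted p = 3.68e-07), and its relative Srd5a2 was higher too (1.09 ± 0.19). Hsd3b7, of bile acid and sterol synthesis, was at 349 and 366 CPM in corpus and 65.6 and 61.6 CPM in cauda (2.49 ± 0.1, adjusted p = 3.17e-07), and the estrogen sulfotransferase Sult1e1 rose by 2.06 ± 0.14. Hsd11b1, which regenerates active glucocorticoid, was at 4.98 and 4.05 CPM in corpus and 69.4 and 63.9 CPM in cauda (-3.89 ± 0.15, adjusted p = 2.2e-07). The glucocorticoid-induced Tsc22d3 was lower at -1.06 ± 0.08. The estrogen receptor Esr1 (0.15 ± 0.13) and the glucocorticoid receptor Nr3c1 (-0.24 ± 0.11) were not called.

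Among developmental transcription factors, Hox genes were more often called lower in corpus than higher, and forkhead, Gata and Gfi factors were called in both directions. Of 27 Hox genes, which pattern the body axis and the reproductive tract, 12 were called lower in corpus and 0 higher, with a median of -0.53; 7 were called lower without cauda 1. Hoxb9 was at 12.6 and 13.6 CPM in corpus and 62.5 and 53.3 CPM in cauda (-2.14 ± 0.11, adjusted p = 1.45e-06), Hoxa10 at 1.9 and 1.52 CPM in corpus and 10.6 and 10 CPM in cauda (-2.59 ± 0.32, adjusted p = 0.000326) and Hoxb7 at 168 and 170 CPM in corpus and 308 and 307 CPM in cauda (-0.86 ± 0.07). Among 21 forkhead, Gata and Gfi factors, 4 were called higher and 2 lower, 28.6% in all, below the 35.4% of all genes. Gata2, a zinc finger factor of blood and urogenital development, was at 1.34 and 1.37 CPM in corpus and 149 and 134 CPM in cauda, with 0.498 and 0.921 CPM in caput (-6.7 ± 0.18, adjusted p = 5.98e-08). Gata3 was lower by a smaller amount, at 91.8 and 85.1 CPM in corpus and 132 and 138 CPM in cauda (-0.61 ± 0.08, adjusted p = 0.000348). Gfi1b, a transcriptional repressor of blood cells, was higher at 28.5 and 26.8 CPM in corpus and 5.23 and 4.3 CPM in cauda (2.54 ± 0.21, adjusted p = 1.77e-05). Besides Foxi1, Foxp1 was called higher (0.51), and Foxj2 was too (0.83), a call lost without cauda 2 or corpus 1.

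Lysosomal genes changed in both directions. Of 43 lysosomal enzymes and membrane proteins, 16 were called higher in corpus and 17 lower, with a median of -0.01 that became 0.26 under library totals. Those lower were 9 without corpus 1 and 11 without cauda 1. Hexa, a subunit of an enzyme that degrades gangliosides and glycans, was higher at 176 and 160 CPM in corpus and 35.5 and 39.4 CPM in cauda (2.16 ± 0.1, adjusted p = 5.38e-07). The acid mannosidases Man2b1 (2.46 ± 0.15) and Manba (1.9 ± 0.12), the acid lipase Lipa (2.44 ± 0.12) and the cathepsins Ctsh (1.82 ± 0.13) and Ctsc (0.99 ± 0.14) were also called higher, as was Tfeb (0.82 ± 0.13), the transcription factor known as a master regulator of lysosomal genes. Lamp2, a membrane glycoprotein, was lower at 320 and 350 CPM in corpus and 547 and 530 CPM in cauda (-0.68 ± 0.08, adjusted p = 0.000125), and so were Gla (-1.25 ± 0.16), Arsb (-1.38 ± 0.18) and Ctsl (-0.61 ± 0.08). Lamp1 and Ctsb were not called, at -0.17 ± 0.08 and -0.01 ± 0.08. As a sum, the list held 1.6% and 1.68% of the reads in corpus and 0.843% and 0.825% in cauda; Npc2 had the largest part of it in corpus and Lamp1 in cauda.

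Endocytosis and vesicle recycling, the route by which clear cells move the proton pump, had 13 of 39 genes called higher in corpus and 3 lower, with a median of 0.12. The lipoprotein receptor Vldlr was higher, at 11 and 14.5 CPM in corpus and 1.8 and 1.53 CPM in cauda (2.94 ± 0.25, adjusted p = 2.57e-05), as were the secretory GTPase Rab27b (2.83 ± 0.39) and the clathrin light chain Cltb (0.72 ± 0.09). Lrp2, megalin, the large scavenger receptor, was lower at 128 and 125 CPM in corpus and 351 and 361 CPM in cauda (-1.49 ± 0.09, adjusted p = 3.68e-06), and Sorl1, a sorting receptor, at 7.5 and 7.24 CPM in corpus and 32.8 and 32.9 CPM in cauda (-2.16 ± 0.11, adjusted p = 1.17e-06). Cltc, Rab5a, Rab7 and Rab11a, general parts of the pathway, were not called and lay between -0.14 and 0.11.

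Apical actin and brush border genes changed in both directions. Of 33 microvilli and apical actin genes, 11 were called higher in corpus and 8 lower, with a median of 0.09; 7 were called higher without corpus 1. Cdhr2, a protocadherin of the links between microvillar tips, was at 31.5 and 28.8 CPM in corpus and 1.69 and 0.599 CPM in cauda (4.73 ± 0.53, adjusted p = 0.00101; 5.64 without cauda 1). Its scaffold Ush1c, harmonin, was at 13.5 and 15.4 CPM in corpus and 0.64 and 0.218 CPM in cauda (5.08 ± 0.44, adjusted p = 2.96e-05). The motor of that complex, Myo7b, was at 28.3 and 27.8 CPM in corpus and 2.62 and 2.45 CPM in cauda (3.47 ± 0.2, adjusted p = 2.09e-06). All 3 genes had corpus values far above cauda values. Actg1, cytoplasmic gamma-actin, was at 12.7 and 15.3 CPM in corpus and 4.24 and 5.56 CPM in cauda (1.51 ± 0.18), with reads that match several genes not counted. The other way went Ezr, ezrin, which links actin to the membrane, at 414 and 400 CPM in corpus and 838 and 866 CPM in cauda (-1.07 ± 0.07, adjusted p = 6.31e-06), and its partner Slc9a3r1, at 490 and 463 CPM in corpus and 1380 and 1434 CPM in cauda (-1.56 ± 0.08, adjusted p = 1.17e-06). The scaffold Pdzk1 was at 0.448 and 1.22 CPM in corpus and 32.4 and 25.9 CPM in cauda (-5.1 ± 0.5, adjusted p = 0.000476; -6.0 without corpus 2).

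Junction genes had 12 of 32 members called higher in corpus and 5 lower, with a median of 0.24; the higher calls were 6 without corpus 1 and 7 without cauda 2. Cldn6 (4.59 and 5.57 CPM in corpus and 1.1 and 1.42 CPM in cauda) rose by 2.0 ± 0.23, the kidney cadherin Cdh16 by 1.14 ± 0.14 and beta-catenin, Ctnnb1, by 0.64 ± 0.09. The claudins Cldn8, at 116 and 116 CPM in corpus and 535 and 535 CPM in cauda (-2.21 ± 0.08, adjusted p = 1.89e-07), Cldn14 (-2.29 ± 0.27) and Cldn4 (-1.19 ± 0.12) were lower. Epcam and Cldn7, epithelial genes, were not called, at -0.01 ± 0.09 and 0.07 ± 0.09.

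Acid-base genes changed in both directions. Of 25 genes, 8 were called higher in corpus and 6 lower, with a median of 0.09; 5 were called higher without cauda 2. Of the carbonic anhydrases, the membrane-anchored Car4 was at 2054 and 2115 CPM in corpus and 207 and 123 CPM in cauda (3.66 ± 0.29, adjusted p = 0.000573), whereas the membrane-bound Car14 was at 2.07 and 2.63 CPM in corpus and 125 and 123 CPM in cauda (-5.71 ± 0.14, adjusted p = 2.83e-08). Atp4a, the catalytic subunit of the gastric proton pump, was at 135 and 118 CPM in corpus and 47.3 and 38 CPM in cauda (1.57 ± 0.17, adjusted p = 0.000296), and the proton channel Hvcn1 was higher too (1.3 ± 0.17). The anion exchangers Slc26a7, at 1.01 and 1.52 CPM in corpus and 14.7 and 12.9 CPM in cauda (-3.43 ± 0.28), and Slc26a2 (-1.26 ± 0.12) were lower, as was the sodium-proton exchanger Slc9a3 (-4.05 ± 0.44; -4.7 without corpus 1). Among 24 sodium, potassium and water transport genes, 9 were called higher and 6 lower, with a median of 0.49 that was 0.2 to 0.52 when libraries were left out in turn; with the stricter filter 7 were called in each direction, with a median of -0.21. Atp1b1, a subunit of the sodium pump, was at 320 and 350 CPM in corpus and 90.8 and 111 CPM in cauda (1.73 ± 0.1, adjusted p = 2.86e-06), and its regulator Fxyd2 rose by 4.35 ± 0.81, which was 5.28 without cauda 2, 3.58 without corpus 2 and not called without cauda 1 or with no filter. Ano1, a calcium-activated chloride channel, was at 20.1 and 18.3 CPM in corpus and 241 and 218 CPM in cauda (-3.58 ± 0.12, adjusted p = 9.7e-08), the large-conductance potassium channel Kcnma1 rose by 1.25 ± 0.11, the water channel Aqp11 was at 32.6 and 32.5 CPM in corpus and 116 and 107 CPM in cauda (-1.77 ± 0.1), and Fxyd3 was lower at -2.9 ± 0.24.

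Purinergic genes changed in both directions, and more cAMP, renin-angiotensin and nitric oxide genes were called higher in corpus than lower. Of 19 purinergic and ectonucleotidase genes, 6 were called higher in corpus and 4 lower, with a median of 0.27. The ATP-gated channel P2rx2 was higher, at 74.8 and 80.2 CPM in corpus and 35.3 and 34.3 CPM in cauda (1.15 ± 0.17, adjusted p = 0.00102), whereas P2rx1 was at 1.18 and 0.608 CPM in corpus and 31.6 and 39.3 CPM in cauda (-5.32 ± 0.28, adjusted p = 1.39e-06). The ADP receptor P2ry1 was lower (-0.88 ± 0.16). The ectoenzymes that degrade ATP to adenosine, Entpd1 (1.04 ± 0.14) and Nt5e (0.7 ± 0.11), were higher. Of 22 cAMP, renin-angiotensin and nitric oxide genes, 9 were called higher and 2 lower, with a median of 0.73; the lower calls were 4 without caput 1 or caput 2, and 1 without corpus 2, cauda 1 or cauda 2. The angiotensin receptor Agtr1a was at 4.36 and 5.22 CPM in corpus and 0.349 and 0.218 CPM in cauda (4.06 ± 0.57, adjusted p = 0.000524), its ligand precursor Agt rose by 1.67 ± 0.28 and the converting enzyme Ace by 1.24 ± 0.18. The adenylyl cyclase Adcy7 was at 109 and 117 CPM in corpus and 16.2 and 16.3 CPM in cauda (2.8 ± 0.16, adjusted p = 3.54e-06), and Prkar2b, a regulatory subunit of protein kinase A, rose by 1.58 ± 0.19.

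Cholesterol genes were more often called lower in corpus than higher. Of 33 cholesterol genes, 18 were called lower in corpus and 8 higher, with a median of -0.53. The regulator Srebf2, which switches on sterol synthesis, was at 94.6 and 88.9 CPM in corpus and 195 and 188 CPM in cauda (-1.06 ± 0.08, adjusted p = 9.71e-06). The enzymes Sc4mol, at 220 and 220 CPM in corpus and 443 and 407 CPM in cauda (-0.95 ± 0.07, adjusted p = 1.4e-05), Nsdhl (-1.34 ± 0.12), Sqle (-0.93 ± 0.11) and Cyp51 (-0.9 ± 0.11) were lower in corpus. The late endosomal sterol carrier Stard3 was lower too (-1.07 ± 0.08). The mevalonate pathway enzyme Pmvk was higher by a small amount (0.37, adjusted p = 0.0135), a call lost without cauda 2 or corpus 1. Also called higher were the esterifying enzyme Soat1, at 58.9 and 49.9 CPM in corpus and 12.1 and 14.3 CPM in cauda (2.04 ± 0.14, adjusted p = 5.44e-06), the lipoprotein receptor Scarb1 (1.0 ± 0.16), and Npc1 and Npc2, which export cholesterol from lysosomes. In caput, Sc4mol was at 59.1 and 60.1 CPM and Nsdhl at 52.2 and 45.4 CPM.

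In the lists for secretion, ribosomal proteins and respiration, more members were called lower in corpus than higher, a direction that turned for respiration under library totals. Of 53 genes of the endoplasmic reticulum and secretion, 31 were called lower and 5 higher, with a median of -0.41; library totals left 15 lower and 10 higher with a median of -0.15, without corpus 1 there were 20 lower, and without cauda 1 or corpus 2, 3 higher. Ssr4, of the translocon, was at 708 and 743 CPM in corpus and 1419 and 1327 CPM in cauda (-0.92 ± 0.08, adjusted p = 2.05e-05), the stress-induced Creld2 at 161 and 186 CPM in corpus and 365 and 373 CPM in cauda (-1.09 ± 0.09), and the cargo receptor Tmed10 at 224 and 252 CPM in corpus and 454 and 442 CPM in cauda (-0.91 ± 0.08). The chaperones Hspa5 and Hsp90b1 were not called (0.11 ± 0.09 and 0.01 ± 0.08), and Canx, calnexin, was higher (0.51 ± 0.09). Of 85 cytosolic ribosomal protein genes, 38 were called lower and 3 higher, with a median of -0.32; under library totals 17 were lower and 10 higher, with a median of -0.05, and the lower calls were 23 without corpus 1 and 24 without cauda 1. Rplp1 was at 179 and 195 CPM in corpus and 341 and 329 CPM in cauda (-0.84 ± 0.08, adjusted p = 4.91e-05), and Rplp0 at 436 and 440 CPM in corpus and 692 and 689 CPM in cauda (-0.66 ± 0.07). Rpl3l, a variant known from muscle ribosomes, was higher, at 203 and 194 CPM in corpus and 74.4 and 61.4 CPM in cauda (1.55 ± 0.1, adjusted p = 4.75e-06). Reads that were not unique were left out of all counts. In the corpus libraries, 38.59% and 38.13% of all counts, including those assigned to no gene, were marked not unique. In the cauda libraries the shares were 36.77% and 36.67%. The part of such reads in the ribosomal protein values was not tested. Of 78 nuclear genes of oxidative phosphorylation, 24 were called lower and 8 higher with a median of -0.13, and under library totals 4 were lower and 28 higher with a median of 0.14. The lower calls were 12 without cauda 1 or corpus 1, and the higher ones 1 without cauda 1 or corpus 2, 2 without cauda 2 and 5 without corpus 1. Ndufa1 was lower (-0.54 ± 0.07) and Ndufb7 higher, at 1019 and 1117 CPM in corpus and 499 and 527 CPM in cauda (1.06 ± 0.08, adjusted p = 1.03e-05).

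In glycolysis and the citric acid cycle, 11 of 30 genes were called lower in corpus and 2 higher, with a median of -0.12 that became 0.15 under library totals, with 6 lower and 9 higher; the lower calls were 7 without cauda 2 or corpus 1, and 1 was higher without cauda 1, corpus 1 or corpus 2. Ldhb, the lactate dehydrogenase subunit of oxidative tissues, was at 228 and 239 CPM in corpus and 1733 and 1667 CPM in cauda (-2.86 ± 0.08, adjusted p = 5.98e-08), while its partner Ldha was not called (-0.0 ± 0.14). Mdh1 (-0.97 ± 0.08) and the aldolase Aldoc (-1.89 ± 0.13) were lower as well, and the phosphofructokinase Pfkp was higher (1.57 ± 0.11, adjusted p = 6.66e-06). Of 75 mitochondrial ribosomal proteins, 8 were called higher and 10 lower (24% called, against 35.4% of all genes), with a median of -0.06 that became 0.21 under library totals, 30 being higher and 5 lower; 4 were higher without cauda 1, and 3 without cauda 2, corpus 1 or corpus 2. Mrps25 of the small subunit was lower (-0.98 ± 0.08) and Mrps35 higher (0.59 ± 0.1).

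**Figure D4:**
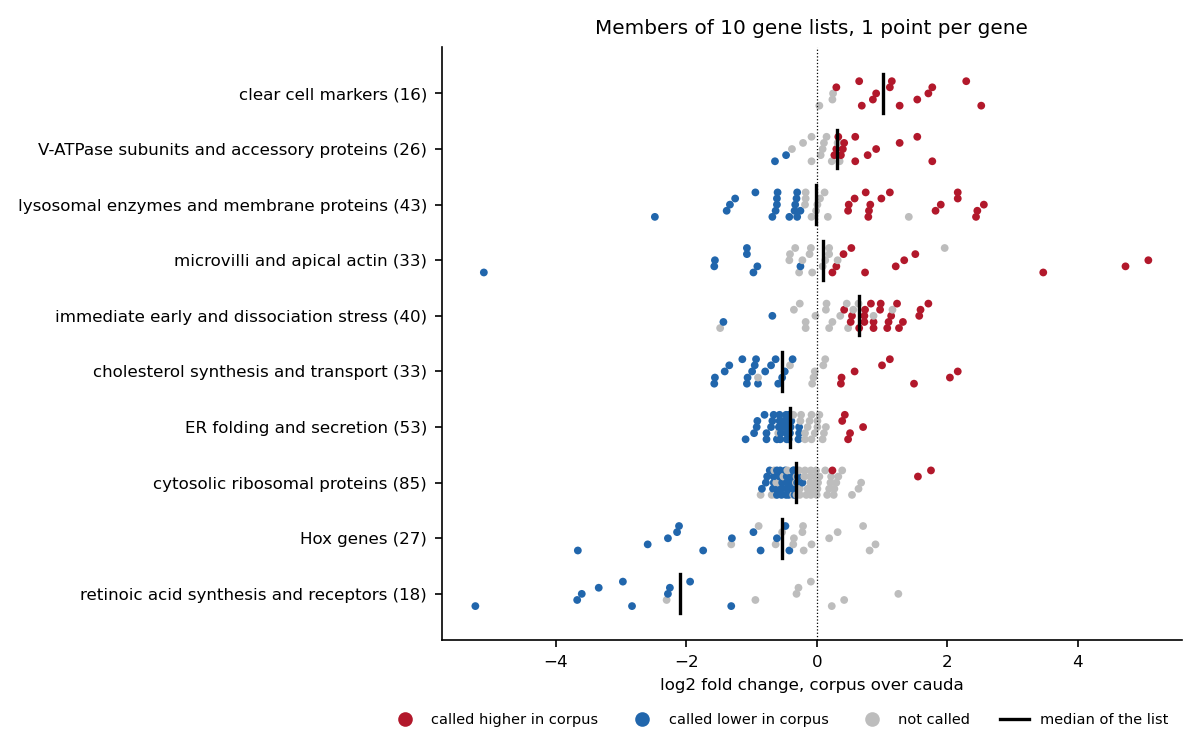
Log2 fold change of corpus over cauda for the members of 10 gene lists, 1 point per gene, with the number tested in brackets; red and blue points were called higher and lower in corpus, and the black bar is the median of the list. Clear cell markers lie right of 0, retinoid and Hox genes mostly left, lysosomal genes on both sides with a tail to the right, and ribosomal and endoplasmic reticulum genes form narrow clusters just left of 0.

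Antioxidant genes were numerous in both directions. Of 56 glutathione and antioxidant genes, 13 were called higher in corpus and 21 lower, with a median of -0.0 (under library totals 0.26, and 21 higher against 17 lower). Besides Gpx5 and Gpx3, Gpx6 (0.168 and 0.304 CPM in corpus and 21 and 22.1 CPM in cauda) and the mitochondrial superoxide dismutase Sod2 (390 and 419 CPM in corpus and 1010 and 1012 CPM in cauda) were lower, at -6.46 ± 0.29 and -1.32 ± 0.08. Higher in corpus were the glutathione transferase Gstm6, at 1433 and 1532 CPM in corpus and 300 and 300 CPM in cauda (2.31 ± 0.08, adjusted p = 1.17e-07), the endoplasmic reticulum peroxidase Gpx8 (2.82 ± 0.14) and the quinone reductase Nqo1, at 335 and 365 CPM in corpus and 95.5 and 94.3 CPM in cauda (1.88 ± 0.12, adjusted p = 8.26e-06). Catalase, Cat, rose by 0.66 ± 0.1, and the regulator Nfe2l2 was not called (0.2 ± 0.08).

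Metal carriers included the largest rise among the transporters. Of 26 metal genes, 6 were called higher in corpus and 4 lower, with a median of -0.06 that became 0.22 under library totals. Their share called, 38.5%, was near the 35.4% of all genes. Next to Slc39a8, the zinc importer Slc39a14 (2.06 ± 0.2), the iron importer Slc11a2 (1.22 ± 0.11) and the iron exporter Slc40a1, ferroportin, at 46.4 and 43 CPM in corpus and 7.67 and 5.18 CPM in cauda (2.8 ± 0.28, adjusted p = 0.000565), were higher. The zinc exporters Slc30a2, at 27.2 and 22.3 CPM in corpus and 151 and 219 CPM in cauda (-2.9 ± 0.24, adjusted p = 0.000298), Slc30a4 (-1.06 ± 0.13) and Slc30a7 (-1.24 ± 0.09) were lower. The metallothionein Mt1 was not called, at 1461 and 1569 CPM in corpus and 1247 and 1368 CPM in cauda (0.21 ± 0.1). Alas2, the heme synthesis enzyme of red blood cells, was at 38 and 43.1 CPM in corpus and 3.43 and 4.9 CPM in cauda (3.28 ± 0.19, adjusted p = 2.09e-06), while the globin genes Hba-a1, Hba-a2, Hbb-b1 and Hbb-b2 had between 0 and 2 reads in either region. Among 49 amino acid and organic solute transporters, 14 were called higher and 14 lower. The fructose carrier Slc2a5 was at 97.8 and 99.6 CPM in corpus and 15.8 and 14.8 CPM in cauda (2.69 ± 0.1, adjusted p = 1.8e-07), and the glutamine carrier Slc1a5 at 21.4 and 24.9 CPM in corpus and 3.84 and 4.47 CPM in cauda (2.48 ± 0.21). Slc1a1, a glutamate carrier, was lower at 189 and 213 CPM in corpus and 443 and 475 CPM in cauda (-1.19 ± 0.08, adjusted p = 7.23e-06), and so were the taurine carrier Slc6a6 (-1.04 ± 0.08) and Slc7a12, of the family of Slc7a15 (-3.56 ± 0.2). The higher calls of this list were 8 without cauda 2 or corpus 1 and 9 without corpus 2.

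Immune genes changed in both directions. Members called were 46.4% for MHC class I, 45.2% each for interferon response and for pattern recognition and NF-kB, and 44.8% for cytokines and chemokines. For mucin and mucosal antimicrobial genes the share was 38.9%, and for complement genes 22.7%, against 35.4% of all genes. Of 28 MHC class I genes, 12 were called lower and 1 higher, with a median of -0.26 that became 0.01 under library totals, where 10 were lower and 5 higher; without corpus 1 or corpus 2, 2 were higher. B2m, the class I light chain, was at 7883 and 8411 CPM in corpus and 18111 and 16322 CPM in cauda (-1.08 ± 0.09, adjusted p = 1.94e-05), Mr1, which presents microbial metabolites, at 8.62 and 9.82 CPM in corpus and 88.5 and 75.3 CPM in cauda (-3.15 ± 0.12, adjusted p = 2.81e-07), and the immunoproteasome subunit Psmb8 was lower at -1.66 ± 0.13. H2-K1 and H2-D1, the classical heavy chains, were not called (1.11 ± 0.31 and -0.17 ± 0.43), and H2-K2 was higher (1.75 ± 0.24); near-identical class I genes share reads. Of 42 interferon response genes, 13 were called lower and 6 higher, with a median of -0.43, and under library totals 8 were lower and 11 higher. Without cauda 1, 8 were lower and 3 higher, and without corpus 2, 3 were higher. Trim30a was at 0.839 and 1.22 CPM in corpus and 21.3 and 18.7 CPM in cauda (-4.27 ± 0.24, adjusted p = 1.96e-06) and Irf1 lower at -1.0 ± 0.12, while Irf9 (1.05 ± 0.08, adjusted p = 1.21e-05) and Irf7 (0.71 ± 0.11) were higher. Of 31 pattern recognition and NF-kB genes, 7 were called in each direction, with 4 higher without corpus 1 and 4 lower without corpus 2. The double-stranded RNA receptor Tlr3 (-2.32 ± 0.17) and the kinase Irak1, at 286 and 257 CPM in corpus and 521 and 530 CPM in cauda (-0.95 ± 0.1, adjusted p = 8.93e-05), were lower, and the NF-kB subunit Nfkb2 was higher (0.96 ± 0.13).

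Of 29 cytokines and chemokines, 6 were called higher and 7 lower; without cauda 1 or corpus 1, 4 were called lower. Tgfb1 was at 20.1 and 17.8 CPM in corpus and 5.06 and 4.79 CPM in cauda (1.94 ± 0.17, adjusted p = 2.42e-05), and Tgfb3 (1.6 ± 0.17) and Il34 (2.11 ± 0.23), a ligand of the macrophage receptor Csf1r, were higher too. Il15 (-2.35 ± 0.2), Csf1 (-1.85 ± 0.25) and Cx3cl1, at 18.4 and 24.3 CPM in corpus and 60.1 and 57.9 CPM in cauda (-1.46 ± 0.13, adjusted p = 3.17e-05), were lower. Of the 18 tested mucin and mucosal antimicrobial genes, 5 were called lower and 2 higher, and without corpus 1, 5 were higher. Ltf, lactoferrin, an iron-binding antimicrobial protein, was at 873 and 688 CPM in corpus and 7151 and 8034 CPM in cauda (-3.28 ± 0.31, adjusted p = 0.00122), and Ido1, which degrades tryptophan, at 32.3 and 33.3 CPM in corpus and 223 and 214 CPM in cauda (-2.74 ± 0.09, adjusted p = 9.7e-08). The membrane mucins Muc1, at 6.66 and 6.74 CPM in corpus and 0.291 and 0.163 CPM in cauda (4.86 ± 0.34, adjusted p = 7.03e-06), and Muc20 (0.89 ± 0.1) were higher. S100a8 belongs to this list and to that of neutrophil markers, of which S100a9 had 0 reads in corpus and 1.16 and 1.36 CPM in cauda, a call lost without cauda 2, while Ly6g, Mpo, Elane, Ngp, Camp, Cxcr2, Csf3r and Retnlg had at most 2 reads in a region. Of 22 complement genes, 4 were called lower, among them Clu, and 1 higher (Masp2), a call lost without any 1 of the 4 libraries; without caput 2, 7 were lower.

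Immediate early and dissociation-stress genes, which respond to cell handling as well as to signals in tissue, were higher in corpus. Of 40 tested, 21 were called higher and 2 lower, with a median of 0.65, and 20 to 23 were called higher when libraries were left out in turn. The heat shock gene Hspa1b was at 518 and 580 CPM in corpus and 186 and 184 CPM in cauda (1.57 ± 0.09, adjusted p = 2.78e-06), the co-chaperone Dnajb1 at 478 and 576 CPM in corpus and 170 and 181 CPM in cauda (1.59 ± 0.1, adjusted p = 3.73e-06), and the stress phosphatase subunit Ppp1r15a rose by 1.23 ± 0.09. The early growth response gene Egr1 (0.98 ± 0.11), Fos (0.74 ± 0.09) and Jun (0.83 ± 0.1) were also called. Myc was lower (-1.43 ± 0.29), a call lost without corpus 1; Nr4a2 was lower too (-0.68 ± 0.19), and 1 member was called lower without cauda 1 and 0 without corpus 1. The call of Nr4a2 was lost under library totals (-0.41). Its value was -0.52 without cauda 1, -0.79 without corpus 1 and -0.56 without corpus 2. Dusp1 and Nr4a1 were not called, at -0.17 ± 0.28 and 0.24 ± 0.22. This list moved in the same direction as the clear cell markers, and its part in other differences was not tested.

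**Figure D5:**
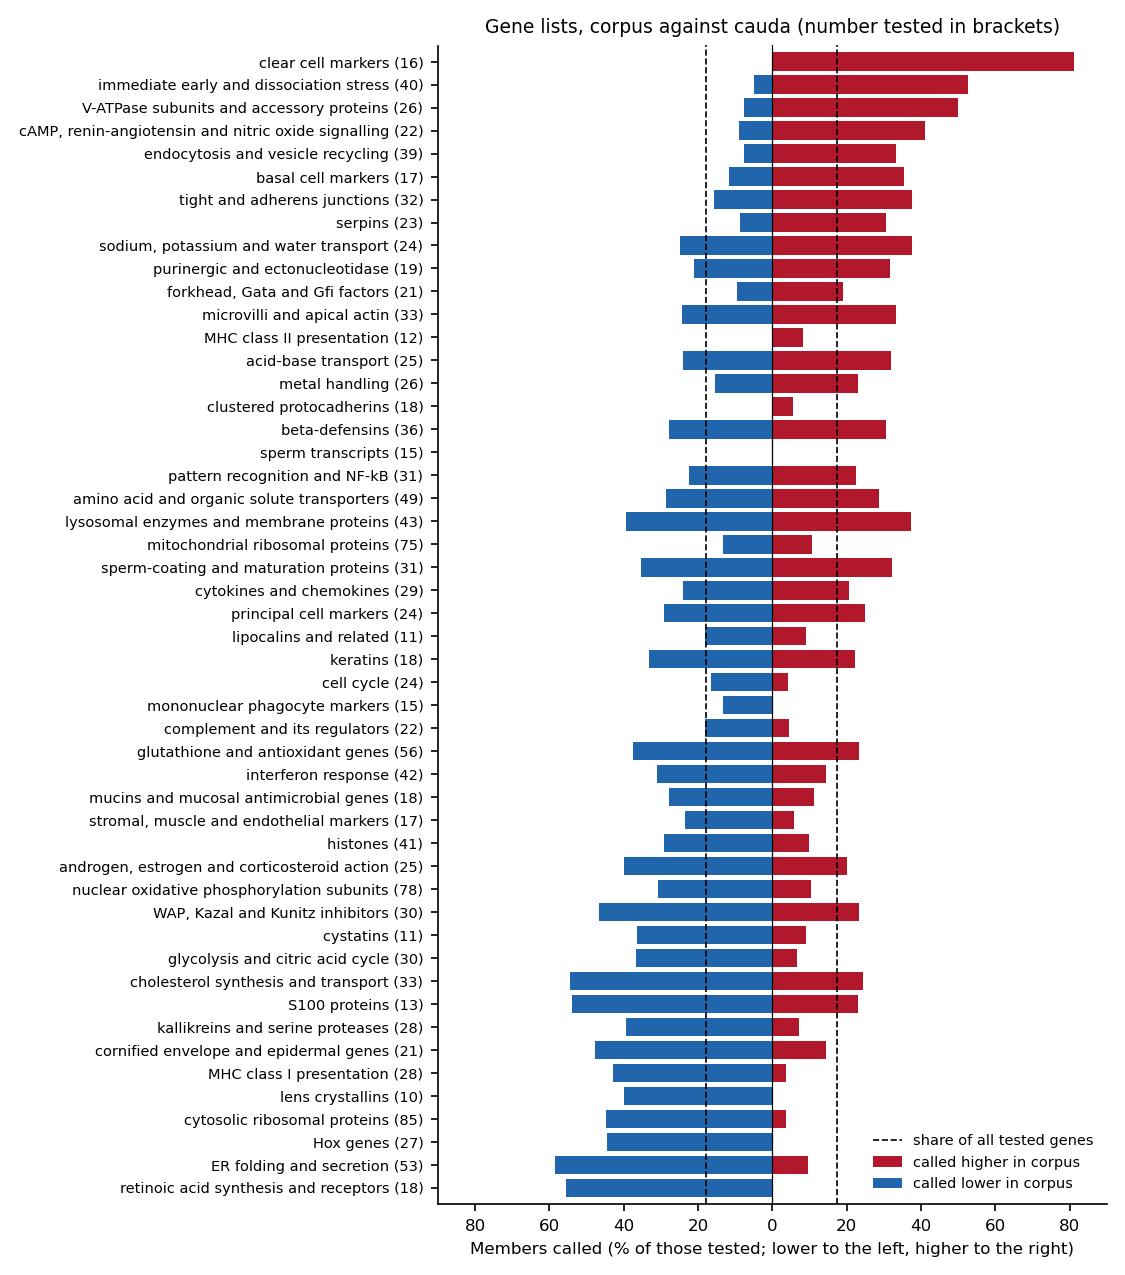
Share of tested members called higher in corpus (red, to the right) and lower (blue, to the left) for each list with at least 10 tested members, in percent of those tested; the dashed lines mark the shares of all tested genes, 17.3% and 18.0%. Clear cell markers stand at the top with 13 of 16 called higher, and retinoid, endoplasmic reticulum and Hox genes at the bottom.

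In the remaining lists, the share of members called was 39% for histones, 20.8% for cell cycle genes, 8.33% for MHC class II genes and 5.56% for clustered protocadherins, against 35.4% of all genes. Of 41 histone genes 4 were called higher and 12 lower, with 5 lower and 8 higher under library totals; the lower calls were 3 without corpus 1, 4 without cauda 1 and 7 without corpus 2, and the higher ones 1 without cauda 2 or corpus 2 and 2 without cauda 1. The linker histone H1f0 was higher (0.89 ± 0.1) and the variant H2afv lower (-0.9 ± 0.07). Of 24 cell cycle genes 1 was called higher, the ribonucleotide reductase Rrm2 (1.28 ± 0.17), and 4 lower, among them Ccne1 (-1.72 ± 0.3); without cauda 1, 1 was called lower. Of 12 MHC class II genes 1 was called higher and 0 lower (0 higher without cauda 1, cauda 2 or corpus 2, and 1 lower without corpus 2; 3 higher with a replicate block and 2 under library totals), with Cd74 at 72.9 and 125 CPM in corpus and 44.5 and 108 CPM in cauda (0.37 ± 0.63), and of 18 clustered protocadherins 1 was called higher, Pcdhga9 (0.75 ± 0.14), and 2 without caput 2. No mitochondrially encoded gene was measured.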

How the data were processed

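Per the labels, RNA of EGFP-positive clear cells was amplified with a low-input kit (SMARTer) and sequenced on a HiSeq2500, with 2 libraries each for caput, corpus and cauda. The authors deposited read counts per gene and library, a table of RPKM values over all libraries, and each gene's length in that table. Per the submitters' processing notes, STAR, HTSeq and edgeR were used with mouse build mm9; their versions, and the strand setting, are not stated in the labels. Rows that name no gene (no feature 6.67 to 9.48% of all rows' counts, ambiguous 1.39 to 1.83%, not unique 33.11 to 38.59%) entered neither library sizes nor tests, so that reads matching several genes did not count.

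Counts were analysed with edgeR 4.0.16 in R 4.3.3: filterByExpr by region (15816 of 24903 genes with a read), TMM, and a robust quasi-likelihood fit over all 6 libraries with 3 residual degrees of freedom. The contrast was corpus minus cauda, with Benjamini-Hochberg adjustment over all tested genes and a threshold of 0.05. SE was approximated as |log2 fold change| over sqrt(F). The deposited RPKM values served only for levels per length. The code was tested on simulated data.

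Named genes, by rule, were the 15 largest changes each way, the 10 genes with most reads per region, list members and fixed controls. From each list, up to 3 called members per direction were taken, or where none was called the 2 with the highest mean CPM. Only the 15 largest changes were limited to genes that were called, reached 10 CPM in the higher region and did not overlap between regions. Predicted genes were left out of those. Other list members were described in their list's account. Some genes that the rule takes are not reported here. The members and lists were chosen with earlier results of these data known, so list counts are descriptions; no list-level test was made. A fold against 0 reads uses 3 reads over the region, and counting intervals (95%) cover counting error only. With members at 0 reads set at that bound, list medians moved most for neutrophil markers (-9.08 to -7.15) and keratins (-0.35 to -0.74). Alternatives were library totals, RLE, DESeq2 1.42.0, no filter or a stricter one (5 CPM in 2 libraries), only the 4 libraries, a replicate block, removal of a gene length trend, and leaving out each library. Promoters came from a RefSeq table (GRCm38.p6).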

Additional observations from a re-analysis of the deposited data

How the results depend on the processing

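Scaling by library totals gave 5154 genes called higher and 1736 lower in corpus, against 2742 and 2850, and kept 80.1% of the calls in the same direction. DESeq2 called 2552 and 2678, RLE scaling 2754 and 2859, a gene length correction 2762 and 2767, the 4 libraries alone 3031 and 3013, no filter 2816 and 2888, and the stricter filter 2491 and 2507. Leaving out 1 library gave 1911 to 2930 higher and 1855 to 3094 lower, a total of 3766 to 6024, and kept 65.4% of the calls without corpus 1, 67.1% without cauda 1, 67% without cauda 2 and 67.8% without corpus 2. No gene called in the comparison was called in the opposite direction under any of the 14 alternatives. Of 328 called genes that the naming rule took or the text gives, 12 lost the call under library totals, 24 without cauda 1, 23 without cauda 2, 22 without corpus 1, 19 without corpus 2 and at most 6 under each of the others. Among the lists, library totals gave 18 higher and 1 lower for V-ATPase genes, 21 and 4 for junctions, 22 and 2 for endocytosis, 27 and 1 for immediate early genes, 9 and 2 for forkhead, Gata and Gfi factors, 21 and 10 for lysosomal genes, and 2 and 2 for the cell cycle. The stricter filter left 5 kallikreins and serine proteases lower, the 4 libraries alone gave 9 beta-defensins higher and 10 lower with a median of -0.01, and a replicate block gave 4 cystatin-list genes in each direction. Epcam and Ctsb, not called and just below 0, were called higher under library totals, at 0.25 and 0.26. The regions' libraries share replicate numbers, but the labels do not say that a number marks shared animals or days, and only 2 pairs exist. Same-numbered corpus and cauda libraries deviated from their group means with a correlation of 0.134 across genes (0.187 for corpus and caput, 0.162 for cauda and caput), and the fit with a replicate block called 2999 higher and 3091 lower. Depth limits genes under 1 CPM, of which 7.03% were called, against 80.5% of those at 1000 CPM or more. No result stood out as a sample far from its group, since groups of 2 cannot be examined that way.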

Other observations

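Some genes outside every list differed by large amounts, and they were picked after their values were seen. Among those lower in corpus were Id1 and Id3, inhibitors of helix-loop-helix transcription factors that are known targets of BMP signalling. Id1 was at 6.6 and 7.75 CPM in corpus and 236 and 230 CPM in cauda, a log2 fold change of -5.02 (edgeR adjusted p = 1.82e-08), and Id3 at 15.8 and 15 CPM in corpus and 524 and 507 CPM in cauda (-5.06). The ligand Wnt7b was at 1.79 and 2.43 CPM in corpus and 115 and 114 CPM in cauda (-5.75), and the transcriptional co-regulator Cited1 at 2.35 and 4.36 CPM in corpus and 408 and 346 CPM in cauda (-6.8). The matrix protease Mmp7 (-5.7), the uroplakin Upk2 (-5.93), the annexin Anxa9 (-6.36) and the methyltransferase Inmt (-5.03) were lower as well. Gpnmb, a glycoprotein of melanosomes and lysosomes, was at 18.8 and 18.1 CPM in corpus and 1121 and 649 CPM in cauda (-5.58), with its cauda libraries further apart than those of Id1 or Id3.

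D730048I06Rik, a gene without a family name in the files, was among the most abundant transcripts of cauda, at 41.9 and 137 CPM in corpus and 11501 and 11754 CPM in cauda (-7.02; -6.4 without corpus 1 and -8.11 without corpus 2). In the other direction, the predicted genes Gm14316 (163 and 120 CPM in corpus and 0.174 and 0.381 CPM in cauda) and Gm6792 (40.3 and 49.6 CPM in corpus and 0.0581 and 0.109 CPM in cauda) were nearly absent from cauda, with log2 fold changes of 8.95 (9.62 without cauda 2) and 8.97.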
